A study of Mus musculus with 6 samples.

Results

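Cytosolic ribosomal protein genes were described in dendritic cells (DCs) sorted from the mouse thymus. The members were the rows of the count tables whose symbol is Rps or Rpl with a number and an optional short suffix, together with Rpsa, Rplp0, Rplp1 and Rplp2. This rule uses names and no measured value, and it found 85 of 23420 genes. By symbol, 33 belong to the small subunit (Rps) and 52 to the large subunit (Rpl). Rps4y2 among them is annotated as a transcribed processed pseudogene. The study holds 6 RNA-seq libraries, 2 from each of 3 sorted groups, and every sample is labelled Wild Type and batch 1. YG+ pDCs are plasmacytoid DCs, gated as CD11c low B220+, that carried yellow-green (YG) microspheres. They came from mice with subcutaneous MC38 tumours, a colon carcinoma line, that had grown for 12 days when the microspheres were injected into the tumour, and cells were isolated 2 days later. PBS pDCs passed the same CD11c low B220+ gate and PBS Sirpa+ DCs, a conventional DC subset, were gated as CD11c high Sirpa+, both from mice given PBS. The treatment labels give 2 weeks for all 3 groups and do not say whether the mice given PBS bore tumours. The sources used here give no strain, age or number of mice, and nothing says that libraries of a group came from separate mice. The p-values therefore set group differences only against the spread between these libraries, and that spread may be technical. The tumour, the microspheres and the YG gate separate YG+ pDCs from PBS pDCs together and cannot be told apart.

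A ribosome joins a small subunit, which decodes the mRNA, to a large subunit, which forms the peptide bonds, and each subunit is built from ribosomal RNA and in general a single copy of each of its proteins. Ribosomal protein mRNAs are abundant, short and mostly start with a pyrimidine tract (the terminal oligopyrimidine motif), through which Larp1 and the kinase mTOR control their translation. In pDCs the mTOR pathway is known to be needed for the secretion of large amounts of type I interferon, but mRNA counts do not measure translation.

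Of the 85 members, 75 had enough counts to be tested, 31 of the small and 44 of the large subunit. Rpl26 and Rpl30, both core proteins of the large subunit, and the paralogs Rpl10l and Rpl39l had no count in any library, which allows a level of up to 4.21 to 19.1 CPM (counts scaled to library size) at 3 counts. Rps27, Rpl29, Rpl34, Rpl36al, Rpl3l and Rps4y2 had counts under the filter. Many ribosomal protein genes have near-identical copies elsewhere in the genome. In the reference transcript of a member, a median of 43.2% of the 50-base stretches also occurred in a transcript of another locus (range 0% to 98.6%), and for Rps27 it was 98.6%. Each library has a separate summary line for reads without a unique alignment, from 7432125 reads (YG+ pDC library 2) to 16293224 (PBS pDC library 2). Counts of 35 members with a share of at least 50% are uncertain, because reads from such stretches can fall in that line. The sources used here do not say whether any of those reads were also counted in genes. The share was 61.0% for Rpl26 and 29.7% for Rpl30, which were at 0, and among genes described below it was 77.7% for Rpl24, 83.0% for Rps13, 64.1% for Rpl27, 81.1% for Rpl36, 80.3% for Rpl13, 78.7% for Rpl17, 85.5% for Rpl36a and 84.6% for Rps6. The sources do not give the strand setting either, and 18 of the 75 tested members overlap an exon on the opposite strand. Whether reads were counted on the strand of each gene is therefore not known for any member, and all levels and shares below stand under that limit.

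Sequences around the transcription start are shown for members that the results below turn on, to set the pyrimidine tract beside the values. They come from RefSeq (GRCm38.p6), which listed 64 of the 85 members. Each holds the 15 bases before and the 15 bases from the first start that RefSeq lists, which need not be the edge of the GENCODE gene, and is written on the gene's strand. Capitals mark the longest unbroken run of C and T.
Rps6, chr4:86857353-86857382, minus strand: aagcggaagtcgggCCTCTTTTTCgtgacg
Rps9, chr7:3704026-3704055, plus strand: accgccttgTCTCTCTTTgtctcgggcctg
Rps13, chr7:116334176-116334205, minus strand: gagagcaaacgtcggtgagtggcgtcaCTT
Rps21, chr2:180257364-180257393, plus strand: taccgaggacccgCCCTCCTgcccaatagt
Rps24, chr14:24490663-24490692, plus strand: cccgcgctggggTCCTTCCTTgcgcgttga
Rps27l, chr9:66946071-66946100, plus strand: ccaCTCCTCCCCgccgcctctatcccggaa
Rpl13a, chr7:45128731-45128760, minus strand: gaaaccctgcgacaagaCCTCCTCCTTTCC
Rpl24, chr16:55966260-55966289, plus strand: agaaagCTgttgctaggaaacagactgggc
Rpl27, chr11:101442230-101442259, plus strand: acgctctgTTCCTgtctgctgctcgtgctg
Rpl27a, chr7:109519180-109519209, plus strand: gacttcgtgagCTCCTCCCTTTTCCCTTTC
Rpl38, chr11:114668565-114668594, plus strand: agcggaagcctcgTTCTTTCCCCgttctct
Rpl41, chr10:128549154-128549183, minus strand: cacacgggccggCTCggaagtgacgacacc
Rpl27a held the longest of these tracts, 19 bases, and Rpl13a one of 13. Rpl24 and Rpl41 had runs of 2 and 3 bases in the window. The runs of Rpl27a, Rpl13a and Rps13 reach the end of the window and may be longer. For the shares that follow, a gene counted if any start listed for it had the feature, so a gene with several listed starts had several windows. A run of at least 8 C or T lay in such a window for 27 of 64 members (42.2%), against 13.9% of the 27025 genes in the table. Within the window on the gene's strand the letters CTTTCC occurred in 15.6% of members and 1.67% of all genes. In the whole promoter entry, 250 bases before to 50 bases after the start, CTTTCC was present on either strand in 53.1% of members and 29.3% of all genes, and CCGGAAG, the core bound by ETS family factors, in 40.6% and 9.93%. The last bases of CTTTCC can also be the first of CCGGAAG. These are matches of letters, not sites shown to be used.

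Ribosomal protein genes took a small share of the reads in each group. YG+ pDC libraries 1 and 2 had 2.23% and 2.08% of their gene counts in these genes, PBS pDC libraries 2.17% and 1.81%, and Sirpa+ DC libraries 1.38% and 1.85% (95% Wilson intervals 2.20% to 2.27%, 2.04% to 2.11%, 2.11% to 2.24%, 1.77% to 1.85%, 1.34% to 1.43% and 1.81% to 1.89%, which cover counting error only). YG+ pDC libraries were therefore above both Sirpa+ DC libraries, while PBS pDCs overlapped each of the other groups. Group means were 2.15% ± 0.110 (SD, n = 2) in YG+ pDCs, 1.99% ± 0.260 (SD, n = 2) in PBS pDCs and 1.62% ± 0.329 (SD, n = 2) in Sirpa+ DCs. The ratio of means was 1.08 for YG+ pDCs against PBS pDCs, 1.23 for PBS pDCs against Sirpa+ DCs and 1.33 for YG+ pDCs against Sirpa+ DCs. Exact two-sided permutation tests over libraries gave p = 0.667, 0.667 and 0.333, and 0.333 is the smallest p that 2 libraries against 2 can give. The order changed with the denominator. Uniquely placed reads are the gene counts plus the reads that fell in no gene or were ambiguous between genes. As a share of uniquely placed reads, members took 0.0749% and 0.0539% in YG+ pDCs, 0.0183% and 0.0384% in PBS pDCs and 0.0157% and 0.0422% in Sirpa+ DCs. The ratios were then 2.27, 0.979 and 2.23, with YG+ pDCs above both libraries of each other group, and the share of uniquely placed reads counted in any gene was also highest in YG+ pDCs (3.36% and 2.60%, against 0.842% and 2.13% in PBS pDCs and 1.13% and 2.28% in Sirpa+ DCs). Without Rn45s, Malat1, Tsix and Xist among the gene counts, the YG+ and PBS pDC libraries did not overlap either, with a ratio of 1.15. In such bulk samples, fewer cells of a type and less RNA per cell cannot be told apart.

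**Figure D1:**
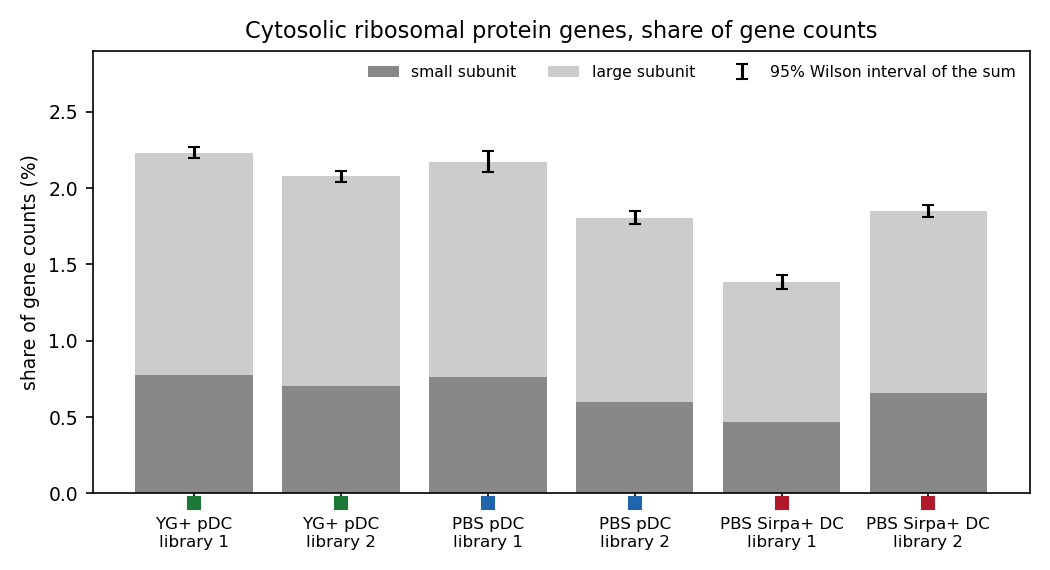
Share of gene counts in ribosomal protein genes (y axis, %) in each of the 6 libraries (x axis), stacked by subunit, with the 95% Wilson interval of the sum. The YG+ pDC bars reach 2.23% and 2.08%, and the lowest bar, at 1.38%, is Sirpa+ DC library 1.

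The balance of the subunits varied little between libraries. Large subunit counts were 1.83 to 2.02 times the small subunit counts, with both extremes outside the YG+ pDC group (1.83 in Sirpa+ DC library 2 and 2.02 in PBS pDC library 2). The small subunit share was 0.776% and 0.704% for YG+ pDCs, 0.763% and 0.598% for PBS pDCs, and 0.468% and 0.655% for Sirpa+ DCs. The large subunit share was 1.46% and 1.37%, 1.41% and 1.21%, and 0.916% and 1.19% in the same order. Both subunits thus had their lowest share in the same library, Sirpa+ DC library 1.

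Depth differed between the libraries. Gene counts ran from 177844 (PBS pDC library 1) to 713966 (YG+ pDC library 1), 0.842% to 3.36% of uniquely placed reads. PBS pDC library 1 and Sirpa+ DC library 1 had the lowest gene shares. In those 2 libraries the ratio of Tsix to Xist counts was the highest, at 20.5 and 11.3 against 2.70 to 4.81 in the other libraries. Tsix thus had more counts than Xist in every library. These are transcripts of opposite strands of the same locus, so their ratio bears on the strand setting, which is not known. The part of that setting in the Tsix and Xist counts and in the low gene shares was not tested. The ribosomal RNA precursor Rn45s took 12.7% and 10.6% of gene counts in YG+ pDCs, the highest of the 6, against 3.69% and 7.90% in PBS pDCs and 7.05% and 9.39% in Sirpa+ DCs. The 7 genes of RNA quality and nuclear RNA summed to 145433 to 159761 CPM in YG+ pDCs and 104762 to 121608 CPM in the other libraries. Summed levels of the 13 pDC markers were 5966 to 8315 CPM in YG+ pDCs, 7705 to 8617 in PBS pDCs and 1062 to 1284 in Sirpa+ DCs, which matches the pDC labels. In the same order, the 9 markers of type 2 conventional DCs, Sirpa among them, summed to 964 to 1042, 670 to 852 and 1333 to 1683 CPM. The 8 markers of type 1 conventional DCs summed to 741 to 757, 364 to 602 and 1876 to 1959 CPM. Sirpa+ DC libraries were thus above all pDC libraries for both conventional types. The 10 monocyte and macrophage markers were at 794 to 1857, 282 to 434 and 3787 to 6290 CPM. B cell markers reached 692 to 829 CPM in pDC libraries and 19.9 to 38.1 in Sirpa+ DCs, and the 10 mature DC markers 1542 to 1979 CPM in YG+ pDCs, 715 to 836 in PBS pDCs and 5208 to 6512 in Sirpa+ DCs. The 11 T cell and thymocyte markers summed to 555 to 721 CPM in pDC libraries and 161 CPM in both Sirpa+ DC libraries, with Cd3g and Ptcra at 0 throughout. Thymic epithelial markers reached 6.38 to 30.9 CPM in pDCs and 132 to 135 CPM in Sirpa+ DCs, with 2 of 6 (Krt14 and Foxn1) at 0 in every library, and red cell markers 21.9 to 102 CPM over all libraries, with Hba-a1 and Hba-a2 at 0. The part of RNA composition and of these other cells in the values below was not tested.

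Levels of single members were compared per kilobase of transcript, since transcript lengths differ. The mean level of the 75 tested members ran from 16.5 to 1252 CPM per kilobase with a median of 220 CPM per kilobase. Rpl32 was highest at 1252 CPM per kilobase, followed by Rpl41, the smallest ribosomal protein, at 1149. Rpl11, which also binds the p53 regulator Mdm2, stood at 903, the stalk protein Rplp1 at 797, Rpl19 at 759, Rps9 at 752, Rps21 at 751 and Rpl8 at 736 CPM per kilobase. Of these 8 genes, 5 were also in the top 8 when merged exon length was used instead. The 5 members with the most counts held 18.1% of all member counts and the top 20 held 56.3%. Across 81 members with a count, the shared-stretch percentage and the level per kilobase had a Spearman rho of 0.17, given as a description.

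**Figure D2:**
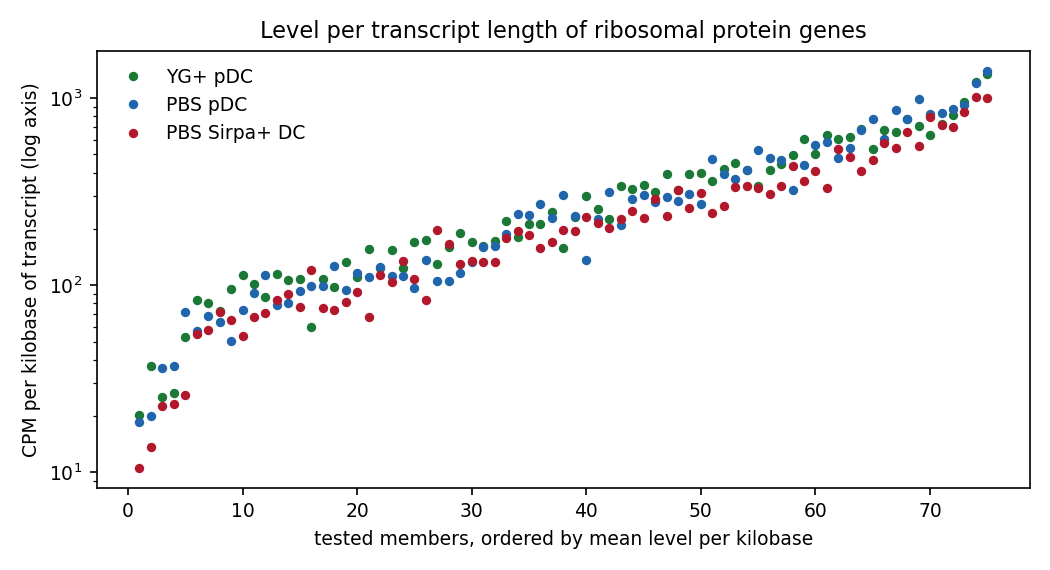
Mean level of each tested member in CPM per kilobase of transcript (log y axis) for the 3 groups, members ordered by their mean over the 6 libraries (x axis). These means span 16.5 to 1252 CPM per kilobase, and the points of the 3 groups lie near each other along the order.

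Among the members with high levels, the extremes often came from single libraries. The level of Rpl32 was 740.2 and 660.3 CPM for YG+ pDCs, 963 and 488 CPM for PBS pDCs and 444 and 588 CPM for Sirpa+ DCs. PBS pDC library 1 was highest and PBS pDC library 2 below both YG+ pDC libraries. In YG+ pDCs Rpl41 stood at 716 and 701 CPM, in PBS pDCs at 912 and 497 CPM and in Sirpa+ DCs at 567 and 618 CPM. The same libraries were highest and lowest among the pDCs. Values of Rpl11 were 813 and 771 CPM (YG+ pDCs), 861 and 669 CPM (PBS pDCs) and 673 and 726 CPM (Sirpa+ DCs). For Rpl11 the PBS pDC libraries were again the highest and the lowest. Rpl19 was at 570.3 and 517 CPM in YG+ pDC libraries 1 and 2, 785 and 469.7 CPM in the PBS pDC libraries and 516 and 562 CPM in the Sirpa+ DC libraries. The level of Rpl8 was 695 and 623 CPM for YG+ pDCs, 491 and 824 CPM for PBS pDCs and 487 and 640.0 CPM for Sirpa+ DCs. For Rpl8 the order of the PBS pDC libraries was turned, with library 2 the highest of all. In YG+ pDCs Rps9 stood at 464 and 494 CPM, in PBS pDCs at 759 and 481 CPM and in Sirpa+ DCs at 529 and 659.9 CPM. Both YG+ pDC libraries were below both Sirpa+ DC libraries for Rps9.

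The stalk proteins recruit the translation factors to the large subunit. Values of Rplp0 were 808 and 841 CPM (YG+ pDCs), 727 and 574 CPM (PBS pDCs) and 563 and 887 CPM (Sirpa+ DCs). Rplp0 was higher in YG+ than in PBS pDCs without overlap, but Sirpa+ DC library 2 was the highest of all. Rplp1 was at 464 and 352 CPM in YG+ pDC libraries 1 and 2, 497 and 375 CPM in the PBS pDC libraries and 326 and 371 CPM in the Sirpa+ DC libraries. The level of Rplp2 was 121 and 85.9 CPM for YG+ pDCs, 102 and 53.2 CPM for PBS pDCs and 63.5 and 109.7 CPM for Sirpa+ DCs. Groups overlapped for Rplp2 in every comparison, and for Rplp1 in each but PBS pDCs against Sirpa+ DCs. On the small subunit, Rps6 is the substrate of the S6 kinases downstream of mTOR, and its window above holds a tract of 10 bases. In YG+ pDCs Rps6 stood at 258 and 311 CPM, in PBS pDCs at 313 and 185 CPM and in Sirpa+ DCs at 284 and 283 CPM. The groups overlapped in all 3 comparisons for Rps6, and its log2 fold changes were 0.22, -0.21 and 0.0073 for YG+ pDCs against PBS pDCs, PBS pDCs against Sirpa+ DCs and YG+ pDCs against Sirpa+ DCs. Rpsa is both a small subunit protein and a laminin receptor. Values of Rpsa were 355 and 263 CPM (YG+ pDCs), 166 and 245 CPM (PBS pDCs) and 322 and 323 CPM (Sirpa+ DCs). Its PBS pDC libraries were the lowest of the 6.

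Libraries of one group differed in ribosomal protein level as a set. In PBS pDCs 62 of the 75 tested members were higher in library 1 than in library 2, with a median log2 difference of 0.55 against -0.10 over all 8141 genes tested. In Sirpa+ DCs 61 of 75 were lower in library 1, with a median of -0.40 against -0.025. In YG+ pDCs 53 of 75 were higher in library 1, with a median of 0.12 against -0.017. PBS pDC library 1 held the highest level of the 6 libraries for 39 of 75 members (52.0%, against 25.2% of all genes), and Sirpa+ DC library 1 the lowest for 41 (54.7%, against 22.9%). These are the libraries with the fewest gene counts, and they stood at opposite ends of these scaled levels. As a share of gene counts, members took 2.17% and 1.38% in them, and 2.23% in YG+ pDC library 1. As a share of uniquely placed reads both were the lowest, at 0.0183% and 0.0157%, against 0.0384% to 0.0749% in the other libraries. The median absolute difference in scaled level between libraries of a group was smaller for members than for all genes. It was 0.16 against 0.29 in YG+ pDCs, 0.59 against 0.79 in PBS pDCs and 0.44 against 0.51 in Sirpa+ DCs, on the log2 scale. All genes were not matched to the members by level, and the part of level in this difference was not tested.

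**Figure D3:**
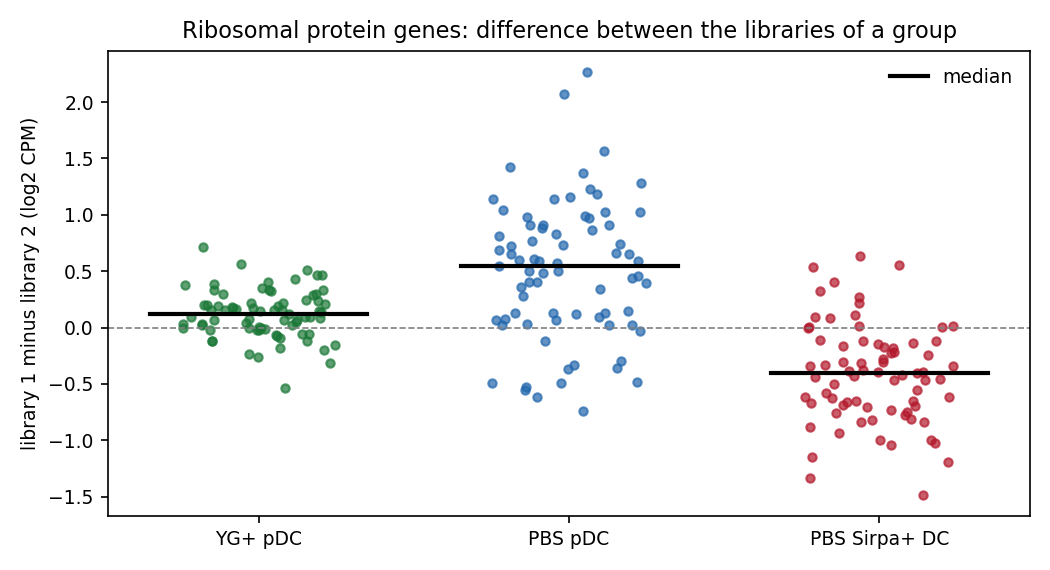
Difference between the 2 libraries of each group (y axis, log2 CPM, library 1 minus library 2) for each of the 75 tested members (points), with the median as a bar. The medians are 0.12 (YG+ pDCs), 0.55 (PBS pDCs) and -0.40 (Sirpa+ DCs).

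The 4 members with the widest spread between libraries of a group were Rpl36a, Rps27l, Rpl27a and Rpl17. Rpl36a was at 53.4 and 53.7 CPM in YG+ pDC libraries 1 and 2, 95.7 and 16.2 CPM in the PBS pDC libraries and 55.0 and 33.9 CPM in the Sirpa+ DC libraries. The PBS pDC libraries differed by 2.27 on the log2 scale for Rpl36a, a large subunit protein coded on the X chromosome. The level of Rps27l was 36.5 and 23.3 CPM for YG+ pDCs, 82.9 and 16.2 CPM for PBS pDCs and 42.3 and 77.8 CPM for Sirpa+ DCs. For Rps27l, a p53-inducible paralog of Rps27, they differed by 2.07. In YG+ pDCs Rpl27a stood at 185 and 179 CPM, in PBS pDCs at 529 and 176 CPM and in Sirpa+ DCs at 271 and 185 CPM. PBS pDC library 1 was highest by far for Rpl27a, with a difference of 1.57 on the log2 scale. Values of Rpl17 were 40.7 and 41.2 CPM (YG+ pDCs), 70.2 and 41.7 CPM (PBS pDCs) and 8.46 and 31.9 CPM (Sirpa+ DCs). For Rpl17 the widest difference, 1.48 on the log2 scale, lay between the Sirpa+ DC libraries.

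**Figure D4:**
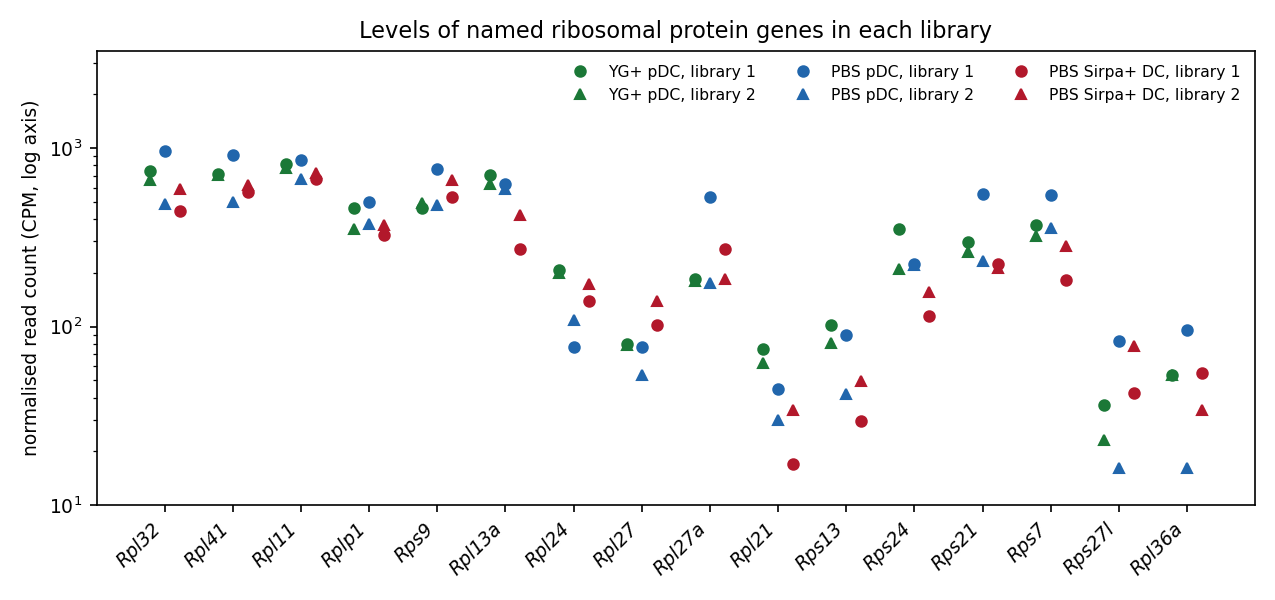
Normalised read count (CPM, log y axis) of 16 named members (x axis) in each library, with circles for library 1, triangles for library 2 and colours for the groups. For Rpl27a, PBS pDC library 1 stands at 529 CPM and the other libraries at 176 to 271 CPM.

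The first comparison, YG+ pDCs against PBS pDCs, asks how cells carrying material from the tumour site differ from thymic pDCs of mice given PBS. No member passed the test, in either direction (edgeR quasi-likelihood test with Benjamini-Hochberg adjustment over all genes, adjusted p under 0.05), and the background was 0.0% of 8141 genes called. At an unadjusted p under 0.05 there was 1 member, Rpl24, against 11.4% of all genes. Rpl24 was also the 1 member with a fold change of 2 (an absolute log2 fold change of at least 1), against 22.1% of all genes. The median log2 fold change of the 75 members was 0.16, beside 0.076 over all genes, and 50 of 75 (66.7%) lay above 0, against 54.9%. Both libraries of one group lay above both of the other for 24 members higher in YG+ pDCs (32.0%, background 26.5%) and 3 lower (background 19.3%). Small subunit members had a median of 0.20 and large subunit members one of 0.13. DESeq2 and limma-voom also called 0 members. The direction depended on the PBS pDC library kept and on the genes in the fit. Without PBS pDC library 1, 68 of 77 members lay above 0 (median 0.35), without PBS pDC library 2 it was 33 of 77 (median -0.078), and in a fit of genes with no opposite-strand exon 24 of 58 (median -0.039). Over all genes the medians of these 3 fits were 0.034, 0.28 and -0.0095. In the main fit, 40 of the 57 members with no opposite-strand exon lay above 0 (median 0.18).

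Rpl24, a large subunit protein at the bridge between the subunits, had the highest log2 fold change in this comparison; its gene lies at GRCm38 chr16:55966275-55971435, plus strand. Rpl24 was at 206 and 200.4 CPM in YG+ pDC libraries 1 and 2, 76.5 and 109 CPM in the PBS pDC libraries and 139.6 and 173 CPM in the Sirpa+ DC libraries. The YG+ pDC libraries were the highest and the PBS pDC libraries the lowest of the 6. For Rpl24, edgeR's quasi-likelihood test gave a log2 fold change of 1.10 ± 0.41 (SE) and an adjusted p = 0.356 in YG+ pDCs against PBS pDCs. The level of Rpl21 was 74.4 and 62.6 CPM for YG+ pDCs, 44.6 and 30.1 CPM for PBS pDCs and 16.9 and 33.9 CPM for Sirpa+ DCs. Both YG+ pDC libraries were above the other 4 libraries for Rpl21, and the PBS pDC and Sirpa+ DC libraries overlapped. The log2 fold change of Rpl21 in YG+ pDCs against PBS pDCs was 0.94 ± 0.53 (SE; edgeR quasi-likelihood test, adjusted p = 0.536). In YG+ pDCs Rps14 stood at 63.2 and 64.4 CPM, in PBS pDCs at 25.5 and 41.7 CPM and in Sirpa+ DCs at 25.4 and 61.8 CPM. The YG+ pDC values of Rps14 were close to that of Sirpa+ DC library 2. Values of Rpl37 were 152 and 134 CPM (YG+ pDCs), 82.9 and 78.7 CPM (PBS pDCs) and 67.7 and 112 CPM (Sirpa+ DCs). Rpl38 was at 47.8 and 55.5 CPM in YG+ pDC libraries 1 and 2, 44.6 and 23.1 CPM in the PBS pDC libraries and 21.2 and 27.9 CPM in the Sirpa+ DC libraries. Both genes were higher in YG+ than in PBS pDCs without overlap, with log2 fold changes of 0.83 for Rpl37 and 0.72 for Rpl38 (edgeR quasi-likelihood test, adjusted p = 0.495 and 0.670). Rpl38, which is needed for translation of a set of Hox mRNAs, carries a tract of 10 bases in its window.

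At the lower end stood 5 members that had their highest level in PBS pDC library 1. Rpl27a (GRCm38 chr7:109519147-109522367, plus strand), whose values are given above, had a log2 fold change of -0.92 ± 0.52 (SE), and its groups overlapped (edgeR quasi-likelihood test, adjusted p = 0.546). Without PBS pDC library 2 it passed at -1.50 (edgeR quasi-likelihood test, adjusted p = 0.027), a fit in which the high library stands alone for its group and is assumed to vary like the others. Rpl36 and Rpl13 belong to the large subunit and Rps15a to the small. The level of Rpl36 was 136 and 125 CPM for YG+ pDCs, 281 and 125 CPM for PBS pDCs and 118 and 134 CPM for Sirpa+ DCs. In YG+ pDCs Rpl13 stood at 466 and 369 CPM, in PBS pDCs at 829 and 373 CPM and in Sirpa+ DCs at 305 and 423 CPM. Values of Rps15a were 150.3 and 113 CPM (YG+ pDCs), 229.6 and 143 CPM (PBS pDCs) and 131 and 104 CPM (Sirpa+ DCs). In all 3 genes PBS pDC library 1 was highest and overlap remained, with log2 fold changes of -0.58, -0.51 and -0.47 (edgeR quasi-likelihood test, adjusted p = 0.677, 0.734 and 0.725). Rps27l had a log2 fold change of -0.47 with a SE of 0.74.

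**Figure D5:**
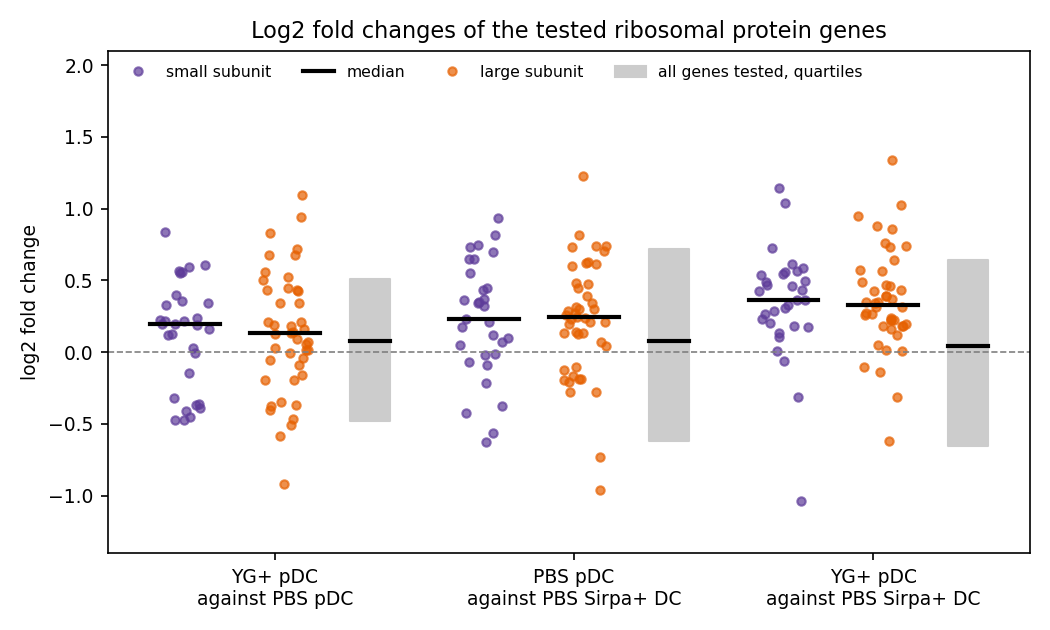
Log2 fold change (y axis) of each tested member (points) in the 3 comparisons (x axis), split by subunit, with medians as bars beside the quartiles and median of all 8141 genes tested (grey box). The members' medians are 0.16, 0.24 and 0.35, beside 0.076, 0.080 and 0.044 for all genes.

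The second comparison set the 2 DC subsets of mice given PBS side by side. No member passed the test between PBS pDCs and PBS Sirpa+ DCs, whereas 931 of 8141 genes did (11.4%; 4.54% higher and 6.89% lower in pDCs). No member had an unadjusted p under 0.05, against 24.0% of all genes, and DESeq2 and limma-voom called 0 members as well. The members' median log2 fold change was 0.24 beside 0.080 over all genes, with 55 of 75 (73.3%) above 0, against 53.3%. Groups did not overlap for 15 members higher in pDCs (background 22.9%) and 7 lower (9.33%, background 24.2%). Rpl17 was the 1 member that reached a fold change of 2, against 34.2% of all genes. Without PBS pDC library 1, 34 of 77 members lay above 0 (median -0.031), and without Sirpa+ DC library 1 it was 42 of 77 (median 0.052). Left with the other libraries, the counts were 59 of 77 (median 0.47) without PBS pDC library 2 and 65 of 75 (median 0.52) without Sirpa+ DC library 2.

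Rpl27, a large subunit protein (GRCm38 chr11:101442298-101445529, plus strand), had the lowest value of this comparison. Rpl27 was at 80.1 and 78.7 CPM in YG+ pDC libraries 1 and 2, 76.5 and 53.2 CPM in the PBS pDC libraries and 102 and 139.6 CPM in the Sirpa+ DC libraries. Both Sirpa+ DC libraries were above all 4 pDC libraries. For Rpl27, edgeR's quasi-likelihood test gave a log2 fold change of -0.96 ± 0.45 (SE) and an adjusted p = 0.218 in PBS pDCs against Sirpa+ DCs. Rpl24 and Rpsa were also lower in both PBS pDC libraries than in both Sirpa+ DC libraries, at -0.73 and -0.63 (edgeR quasi-likelihood test, adjusted p = 0.336 and 0.418). The level of Rps4x was 494 and 471 CPM for YG+ pDCs, 319 and 315 CPM for PBS pDCs and 355 and 492 CPM for Sirpa+ DCs. Rps4x, the X-linked form of its protein, had a log2 fold change of -0.43 (edgeR quasi-likelihood test, adjusted p = 0.591). Rps27l was at -0.56, with overlapping groups.

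At the upper end, the values of Rpl17 given above were lower in both Sirpa+ DC libraries than in any pDC library. The log2 fold change of Rpl17 in PBS pDCs against Sirpa+ DCs was 1.23 ± 0.65 (SE; edgeR quasi-likelihood test, adjusted p = 0.283). In YG+ pDCs Rps7 stood at 372 and 320.3 CPM, in PBS pDCs at 542 and 356 CPM and in Sirpa+ DCs at 182 and 281 CPM. The pDC libraries were above the Sirpa+ DC libraries for Rps7, which like Rpl11 binds Mdm2. For Rps7, edgeR's quasi-likelihood test gave a log2 fold change of 0.93 ± 0.44 (SE) and an adjusted p = 0.223 in PBS pDCs against Sirpa+ DCs. Values of Rps21 were 298 and 261 CPM (YG+ pDCs), 549 and 231 CPM (PBS pDCs) and 224 and 211 CPM (Sirpa+ DCs). PBS pDC library 1 was high for Rps21, while PBS pDC library 2 exceeded the Sirpa+ DC libraries by little. Its log2 fold change was 0.82 (edgeR quasi-likelihood test, adjusted p = 0.339), and without PBS pDC library 2 it passed at 1.28 (edgeR quasi-likelihood test, adjusted p = 0.040). Rps25 was at 282 and 265 CPM in YG+ pDC libraries 1 and 2, 497 and 201 CPM in the PBS pDC libraries and 152 and 251 CPM in the Sirpa+ DC libraries. The Rps25 groups overlapped, its log2 fold change was 0.75, and 24.8% of its exon bases lie opposite another exon.

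The third comparison, YG+ pDCs against PBS Sirpa+ DCs, crosses subset and treatment. Each of its libraries also enters another comparison, so its values are not independent of those above. No member passed the test, and 583 of 8141 genes did (7.16%; 3.07% higher and 4.09% lower in YG+ pDCs). An unadjusted p under 0.05 was reached by Rpl13a, Rps13, Rps24 and Rpl21, 4 of 75, against 22.8% of all genes, and DESeq2 and limma-voom called 0 members. The median log2 fold change of the members was 0.35 beside 0.044 over all genes, and 68 of 75 (90.7%) lay above 0, against 51.6%. Groups did not overlap for 41 members higher in YG+ pDCs (54.7%, background 32.8%) and 4 lower (5.33%, background 29.1%). A fold change of 2 was reached by 5 members, against 32.0% of all genes. Without Sirpa+ DC library 1 the count above 0 was 52 of 77 (median 0.11), and without Sirpa+ DC library 2 it was 67 of 75 (median 0.55). In the fit of genes with no opposite-strand exon it was 48 of 58, with a median of 0.17 beside -0.021 over all genes.

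Rpl21 (GRCm38 chr5:146832890-146837032, plus strand) had the highest log2 fold change of this comparison. The log2 fold change of Rpl21 in YG+ pDCs against Sirpa+ DCs was 1.34 ± 0.52 (SE; edgeR quasi-likelihood test, adjusted p = 0.154). The level of Rps13 was 103 and 80.5 CPM for YG+ pDCs, 89.3 and 41.7 CPM for PBS pDCs and 29.6 and 49.8 CPM for Sirpa+ DCs. For Rps13 (GRCm38 chr7:116331505-116334195, minus strand) the Sirpa+ DC libraries and PBS pDC library 2 were the lowest. For Rps13, edgeR's quasi-likelihood test gave a log2 fold change of 1.14 ± 0.50 (SE) and an adjusted p = 0.201 in YG+ pDCs against Sirpa+ DCs. In YG+ pDCs Rps24 stood at 349.8 and 211 CPM, in PBS pDCs at 223 and 219.8 CPM and in Sirpa+ DCs at 114 and 156 CPM. Rps24 (GRCm38 chr14:24487125-24496959, plus strand), a gene mutated in Diamond-Blackfan anaemia, had its lowest levels in the Sirpa+ DC libraries. The log2 fold change of Rps24 in YG+ pDCs against Sirpa+ DCs was 1.04 ± 0.43 (SE; edgeR quasi-likelihood test, adjusted p = 0.175). Values of Rpl13a were 704 and 632 CPM (YG+ pDCs), 631 and 590.1 CPM (PBS pDCs) and 271 and 419 CPM (Sirpa+ DCs). Rpl13a (GRCm38 chr7:45125558-45128761, minus strand), which besides its place in the ribosome silences inflammatory mRNAs in interferon-treated monocytes, was lower in both Sirpa+ DC libraries than in all 4 pDC libraries. For Rpl13a, edgeR's quasi-likelihood test gave a log2 fold change of 0.95 ± 0.42 (SE) and an adjusted p = 0.205 in YG+ pDCs against Sirpa+ DCs. Its log2 fold change in PBS pDCs against Sirpa+ DCs was 0.82 (edgeR quasi-likelihood test, adjusted p = 0.269). Rpl38 was at 1.03 (edgeR quasi-likelihood test, adjusted p = 0.293).

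Few members lay lower in YG+ pDCs than in Sirpa+ DCs. Rps27l had the lowest value, with both YG+ pDC libraries below both Sirpa+ DC libraries. The log2 fold change of Rps27l in YG+ pDCs against Sirpa+ DCs was -1.03 ± 0.66 (SE; edgeR quasi-likelihood test, adjusted p = 0.389). Rpl27, Rps9 and Rpl27a also did not overlap, at -0.62, -0.31 and -0.31 (edgeR quasi-likelihood test, adjusted p = 0.403, 0.701 and 0.765). Rpl10a was at 107 and 73.4 CPM in YG+ pDC libraries 1 and 2, 82.9 and 81.0 CPM in the PBS pDC libraries and 84.6 and 112 CPM in the Sirpa+ DC libraries. The groups overlapped for Rpl10a, at -0.14.

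The 95% intervals of single members were wide. The median half-width on the log2 scale was 0.95 for YG+ pDCs against PBS pDCs, 0.98 for PBS pDCs against Sirpa+ DCs and 0.95 for YG+ pDCs against Sirpa+ DCs. An interval lay wholly within a 2-fold change in either direction for 7, 5 and 4 of 75 members. For the rest the interval reached past a 2-fold change in at least 1 direction, so members that missed the threshold are not shown to be alike between the groups. The median SE of members, 0.43 to 0.44, was below that of all genes, 0.55 to 0.59. All genes were not matched to the members by level. The part of level in this difference, and in the shares of genes with a 2-fold change above, was not tested.

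Members with and without a long pyrimidine run in the window around a listed start had similar medians. The window includes bases before the start, so this split is not one of mRNAs with and without a terminal tract. Of the tested members, 25 had a run of at least 8 bases at any listed start and 32 had none. Their median log2 fold changes were 0.19 and 0.17 in YG+ pDCs against PBS pDCs. They were 0.21 and 0.20 in PBS pDCs against Sirpa+ DCs, and 0.31 and 0.34 in YG+ pDCs against Sirpa+ DCs. Rpl27a, with the longest tract shown, and Rpl24, with the shortest, stood at opposite ends of the first comparison. The other members shown with a run of at least 8 bases stood at 0.72 (Rpl38), 0.34 (Rps24), 0.22 (Rps6), 0.13 (Rpl13a), -0.37 (Rps9) and -0.47 (Rps27l). Those with a shorter run stood at 0.59 (Rps13), 0.34 (Rpl27), 0.018 (Rpl41) and -0.45 (Rps21). Members with shared stretches of at least 50% (32 tested) had medians of 0.19, 0.18 and 0.31 in the 3 comparisons, and those under 50% (43) had 0.14, 0.29 and 0.39. The 18 members with an exon on the opposite strand had medians of 0.080, 0.32 and 0.42, and the 57 without had 0.18, 0.23 and 0.32.

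Paralogs, which can replace a core protein in some tissues, had fewer counts than their partner in 7 of 8 pairs. Rpl22l1 gave 8.25% to 21.2% of the counts of the pair with Rpl22, and Rpl7l1 4.24% to 8.44% with Rpl7. The level of Rpl22l1 was 47.8 and 41.2 CPM for YG+ pDCs, 57.4 and 18.5 CPM for PBS pDCs and 29.6 and 33.9 CPM for Sirpa+ DCs. In YG+ pDCs Rpl7l1 stood at 50.6 and 55.5 CPM, in PBS pDCs at 51.0 and 46.3 CPM and in Sirpa+ DCs at 21.2 and 33.9 CPM. Rpl7l1 was lower in both Sirpa+ DC libraries than in every pDC library (log2 fold changes 0.74 and 0.88 for PBS and YG+ pDCs; edgeR quasi-likelihood test, adjusted p = 0.459 and 0.329). Rpl22l1 groups overlapped except for YG+ pDCs against Sirpa+ DCs. Values of Rpl22 were 204 and 199 CPM (YG+ pDCs), 313 and 206 CPM (PBS pDCs) and 110.0 and 191 CPM (Sirpa+ DCs). Rpl7 was at 773 and 676 CPM in YG+ pDC libraries 1 and 2, 759 and 502 CPM in the PBS pDC libraries and 478 and 656 CPM in the Sirpa+ DC libraries. Rpl22, the partner whose loss impairs lymphocyte development, was lowest in Sirpa+ DC library 1. Rpl36al held 13.3% to 53.3% of its pair with Rpl36a, whose counts were low. Rpl3l, the form of striated muscle, had 6 counts in all, 5 of them in Sirpa+ DC library 1, against 1005 for Rpl3. Rps4y2, annotated as a transcribed processed pseudogene under the name Rps4l, had 15 counts against 1132 for Rps4x and none in either Sirpa+ DC library. Rps27l was the exception, with 108 counts against 10 for Rps27, or 83.9% to 100% of the pair. Since 98.6% of the Rps27 stretches occur elsewhere and 22.4% of those of Rps27l, this ratio does not compare their mRNA levels. The share also differed within other pairs, in either direction. It was 85.5% for Rpl36a and 46.5% for Rpl36al, but 5.19% for Rpl22 and 57.3% for Rpl22l1. Counts of a pair were not scaled by length, so the other percentages are not ratios of mRNA levels either.

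Other genes of the ribosome and of translation were taken from lists. None of the 8 tested elongation factors passed (median log2 fold changes of 0.11, 0.058 and 0.55 for YG+ pDCs against PBS pDCs, PBS pDCs against Sirpa+ DCs and YG+ pDCs against Sirpa+ DCs, the order kept below), none of 37 initiation factors (0.28, 0.049 and 0.24), none of 15 genes of TOR and ribosomal kinase signalling (0.41, -0.17 and 0.22) and none of 14 ribosome quality control genes (0.27, 0.10 and 0.40), with at most 2 genes of a list at an unadjusted p under 0.05 in a comparison. Over all genes, 0.0%, 11.4% and 7.16% passed. These factors load, move and rescue the ribosomes that the members build. Of 17 other mRNAs with a terminal oligopyrimidine motif (0.51, 0.023 and 0.40), 1 fell in PBS pDCs against Sirpa+ DCs, the intermediate filament gene Vim, from 2261 ± 248 to 440 ± 90.6 CPM (SD, n = 2 each), a log2 fold change of -2.35 (edgeR quasi-likelihood test, adjusted p = 0.0069), beside 6.89% of all genes lower in that comparison. Of 51 genes of RNA polymerase I and ribosome assembly (0.27, 0.49 and 0.62), 1 rose in PBS pDCs against Sirpa+ DCs, Tsr1, which matures the small subunit, from 44.6 ± 27.2 to 169 ± 49.4 CPM (SD, n = 2 each; edgeR quasi-likelihood test, adjusted p = 0.041), with 32.3% of its exon bases opposite another exon. That is 1 of 51 beside 4.54% of all genes higher in that comparison. Both YG+ pDC libraries were above both Sirpa+ DC libraries for 34 of the 51 assembly genes, against 32.8% of all genes, and below both for 5, against 29.1%, and 19 of the 51 have an exon on the opposite strand. Of the 30 tested mitochondrial ribosomal protein genes, a separate family, 1 rose in PBS pDCs against Sirpa+ DCs, Mrps34 (12.3 ± 0.517 to 56.2 ± 10.7 CPM; SD, n = 2 each; edgeR quasi-likelihood test, adjusted p = 0.047; 63.4% opposite exon). Their median in YG+ pDCs against PBS pDCs was -0.38, with 11 of 30 lower without overlap (background 19.3%) and 0 higher (background 26.5%). An exon on the opposite strand overlaps 13 of the 30, and the difference between this family and the cytosolic members was not tested.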

How the data were processed

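Total RNA (TRIzol, 5 ng per sample) was made into libraries with Ovation SoLo RNA-Seq Mouse, per the labels' protocols. The authors deposited 1 table of raw read counts by gene symbol for each sample, in whole numbers. The submitters' processing notes name bcl2fastq 2.17 and mm10. The aligner, counter, annotation and strand setting were not given in the sources used here. Summary lines (5 per file, 97.7% to 99.5% of records) name no gene and were left out of the gene counts and the fit. Those for reads in no gene and for ambiguous reads were added to the gene counts to give the uniquely placed reads. Gene counts were 177844 to 713966 per library.

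Genes passing filterByExpr (8141) were scaled by TMM and tested with edgeR 4.0.16 (R 4.3.3, glmQLFit and glmQLFTest). All 6 libraries entered 1 fit of group means, with 3 residual degrees of freedom, and p-values were adjusted over all genes tested (call under 0.05). The fit was tested on simulated data with known fold changes, which checks the code and not these samples. The labels give no pairing and same-numbered libraries did not deviate together in every pair (r = -0.121, -0.0990 and 0.298), so the main fit used no block. The positive value was that of PBS pDCs with PBS Sirpa+ DCs, and the sources do not say whether these groups came from the same mice. Alternatives used other scalings, filters and gene sets, limma 3.58.1 (voom), DESeq2 1.42.0 and each library left out. Coordinates, lengths and overlaps came from GENCODE M21 (GRCm38; 98.4% of symbols matched), and start sequences from RefSeq.

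The members and lists were chosen with earlier results of these data known. Named are the 5 highest and 5 lowest log2 fold changes per comparison, the 8 highest levels per kilobase, the 4 widest spreads, all paralogs with partners, the stalk proteins, Rpsa, Rps6 and any member called. A list of ribosomal proteins outside the naming rule is not reported here. Of the translation lists, only called genes are printed.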

Additional observations from a re-analysis of the deposited data

How the results depend on the processing

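No member was called in 18 of 19 alternatives for YG+ pDCs against PBS pDCs, in 17 of 18 for PBS pDCs against Sirpa+ DCs and in all 18 for YG+ pDCs against Sirpa+ DCs. Leaving out 1 library at a time gave 0 to 1 called member in the first comparison (Rpl27a) and 0 to 1 in the second (Rps21), each called without PBS pDC replicate 2. Over these fits the members' median log2 fold change ran from -0.078 to 0.35 in the first comparison, from -0.031 to 0.52 in the second and from 0.11 to 0.55 in the third. The other alternatives moved a median beyond the spread between libraries only once. That was to -0.039 for YG+ pDCs against PBS pDCs in a fit of genes with no opposite-strand exon, where the median over all genes was -0.0095. In the main fit, the 57 tested members with no opposite-strand exon had a median of 0.18 in this comparison. The cause of the difference between the 2 fits was not tested.

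Calls over all genes depended more on the setting. In the first comparison they rose from 0 to 111 with DESeq2, to 141 with no filter and to 870 without PBS pDC replicate 2. In the second they fell from 931 to 580 in a fit of the 4 libraries compared, and ran from 214 to 1297 with a library left out. In the third they rose from 583 to 894 with no filter and to 1480 in a fit of the 4 libraries compared, and ran from 69 to 1487 with a library left out. A replicate block called 0 members in each comparison (medians 0.17, 0.23 and 0.34) and 0, 942 and 635 genes. The crossed block, chosen after seeing the data, called 0 members and 1 gene in the first comparison.

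The members' share of gene counts moved with its definition. In YG+ pDCs it was 2.54% of gene counts without Rn45s, Malat1, Tsix and Xist, 1.73% for members with no opposite-strand exon and 1.77% without the 5 members with the highest counts. In PBS pDCs the last 2 settings gave 1.57% and 1.66%. As a share of uniquely placed reads it was 0.0644%, 0.0283% and 0.0290% in YG+ pDCs, PBS pDCs and Sirpa+ DCs, which turned the order of the last 2 groups. Depth limits single members most in PBS pDC replicate 1, where 3 counts equal 19.1 CPM.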
